A study of Triticum aestivum with 6 samples.

Results

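The 150 wheat genes described here are those with the steepest rise in expression from the innermost endosperm (IE) to the remaining endosperm (RE) of the developing grain. They were chosen by measured values, among the genes of the reference annotation: by their mean FPKM in RE, which had to reach 5, and by their separation, with the value in every RE library above that in every IE library. Of the 127196 genes in the table, 12369 reference genes reached that level, and 2095 of these (16.9%) were also separated. The 150 with the largest difference in mean log2(FPKM + 1), RE minus IE, were kept and are called the RE-steep genes below. FPKM is a count of sequenced fragments corrected for gene length and for the depth of the library. The difference between IE and RE chose these genes, so their values in the 2 regions are a description, without a test.

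RNA-seq values were analysed from 3 IE and 3 RE libraries of field-grown winter wheat, cultivar Zhoumai36, harvested 25 days after anthesis. Both regions were dissected by hand from mid-grain slices without pericarp: IE is the core of the lobes, and RE is everything around it. Region and replicate number are labelled, whereas the nitrogen level is not and is therefore unassigned. RE thus holds aleurone cells besides outer starchy cells, and in bulk RNA of this kind fewer cells of a type and less RNA per cell cannot be told apart.

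The wheat endosperm consists mainly of starchy cells, which fill with starch and gluten proteins, and of an outer aleurone, whose cells stay alive in the mature grain and store protein, lipid and minerals. Bread wheat carries the A, B and D subgenomes, so that many genes exist as homoeologs, which are corresponding copies on the chromosomes of one group. Neighbouring duplicates on one chromosome, called tandem copies, are also common in cereal gene families.

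The libraries held between 13959933 and 21766392 fragments on genes, the lowest total being that of IE 3 and the highest that of IE 2. Over the 51830 genes tested, whose mean over the libraries reached 0.5 FPKM, the median difference on the log2(FPKM + 1) scale was 0.07 (RE minus IE). Against the RE mean, the median was 0.18 for IE 3, 0.07 for IE 1 and -0.01 for IE 2, so IE 3 lay lowest of the IE libraries. Scaling the libraries by median-of-ratios size factors moved the median difference over all genes to -0.01. The gliadin gene TraesCSU01G153800, which encodes a starchy endosperm storage protein, was higher in every IE library (44.7, 31.9 and 50.4 FPKM in IE 1, 2 and 3) than in any RE library (21.1, 24.4 and 25.5 FPKM in RE 1, 2 and 3). The globulin genes TraesCS4D01G171800 and TraesCS7D01G351300 overlapped between the regions. Under high nitrogen, the study named the gliadin gene as higher in IE and the globulin genes as higher in RE. These genes were thus not picked independently of the regions, and their values are no independent check of the dissection. No aleurone marker was annotated by identifier in the sources used here, so the share of aleurone in each library was not tested.

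In the fit over the 51830 genes with limma, the share of genes passing an adjusted p of 0.05 and a 2-fold change with higher values in RE was 0%, and the smallest adjusted p was 0.217. Without adjustment of the limma p-values, 1145 genes (2.21%) passed with higher values in RE and 292 with higher values in IE. The call depended on IE 2: with that library left out, 975 genes higher in RE and 93 higher in IE passed with the adjusted p. Leaving out IE 3 took the unadjusted count of genes higher in RE from 1145 to 678, and leaving out IE 2 took it to 2040. Every RE value was above every IE value in 11.9% of the genes tested, and every IE value was above every RE value in 4.35%. These shares are the background for the RE-steep genes, which were separated by construction.

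The RE-steep genes were well expressed in RE. Their RE means ran from 6.03 to 1875 FPKM with a median of 36.5 FPKM, whereas the median of the other 12219 reference genes at an RE mean of at least 5 FPKM was 11.3 FPKM. Only 5 of the 150 (3.33%) lay between 5 and 10 FPKM, the range that held 43.3% of the reference genes at that level. At the other end, 26 (17.3%) lay between 100 and 500 FPKM and 10 (6.67%) at 500 FPKM or more, against 5.01% and 1.78% of the reference genes. The pseudocount of 1 in the rule compresses the differences of weakly expressed genes, so that part of this level is set by the choice. Together the 150 genes took 1.65%, 1.34% and 1.88% of the summed FPKM in RE 1, 2 and 3. In IE 1, 2 and 3 the same genes took 0.503%, 0.718% and 0.118%.

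**Figure D1:**
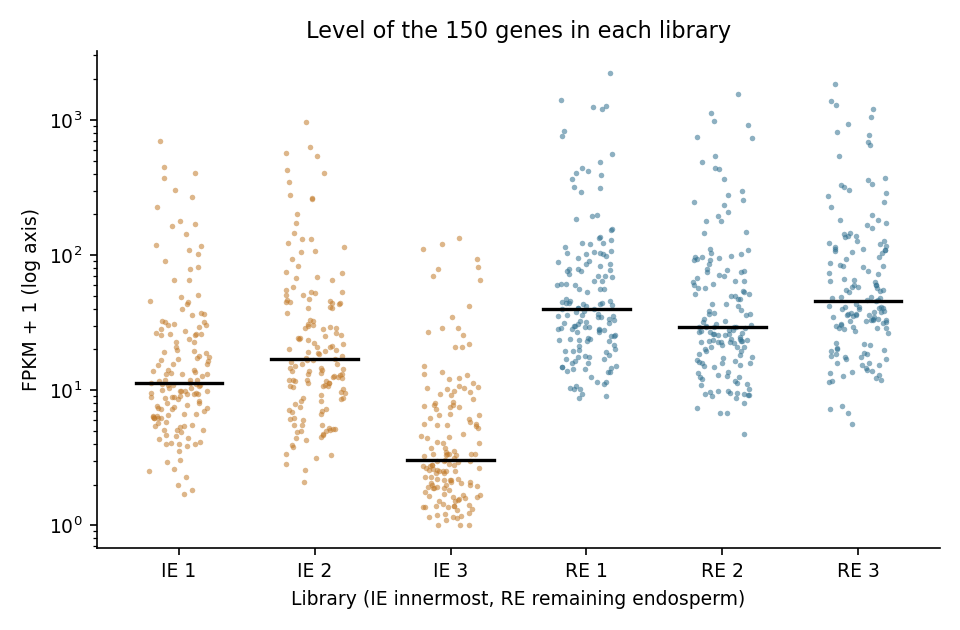
Each point is 1 of the 150 RE-steep genes in 1 library, on a log axis of FPKM + 1, and the black lines are medians over genes. The medians before adding 1 are 10.3, 15.9 and 2.03 FPKM in IE 1, 2 and 3 and 38.8, 28.2 and 45.0 FPKM in RE 1, 2 and 3, so IE 3 lies lowest and IE 2 nearest to RE.

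The difference of the RE-steep genes had a median of 2.09 on the log2(FPKM + 1) scale (range 1.90 to 2.77), and it was at least 2 in 111 of them. For comparison, the 1945 other separated genes had a median difference of 0.48. The boundary of the list lay in a continuous series of values. The genes just inside were TraesCS5A01G513200, TraesCS1B01G248600 and TraesCS1D01G369300, with differences of 1.905, 1.900 and 1.899. The genes just outside were TraesCS1A01G039000, TraesCS1A01G242400 and TraesCS1A01G063100, with differences of 1.895, 1.891 and 1.889. The gap between the regions was narrower than the means imply: the lowest RE value was 1.77 times the highest IE value in the median gene (range 1.03 to 3.86), and it was at least 2 times that value in 43 of the 150.

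The 3 IE libraries were not alike in these genes. As a percentage of the RE mean of the gene, the median level was 28.4% in IE 1 (quartiles 25.1% and 32.2%), 43.0% in IE 2 (36.7% and 47.9%) and 5.69% in IE 3 (4.0% and 7.81%). The ranges between the quartiles did not overlap, and IE 3 was at or below 12.3% in all 150 genes. In the other 12219 reference genes the medians were 90.0%, 94.7% and 82.1%, and in the 1945 other separated genes they were 72.4%, 72.6% and 61.6%. After median-of-ratios scaling the medians of the RE-steep genes were 30.7%, 42.1% and 6.96%. Across the RE-steep genes the median difference was 1.41 without IE 3 (lowest gene 1.06), 2.60 without IE 2 and 2.35 without IE 1.

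**Figure D2:**
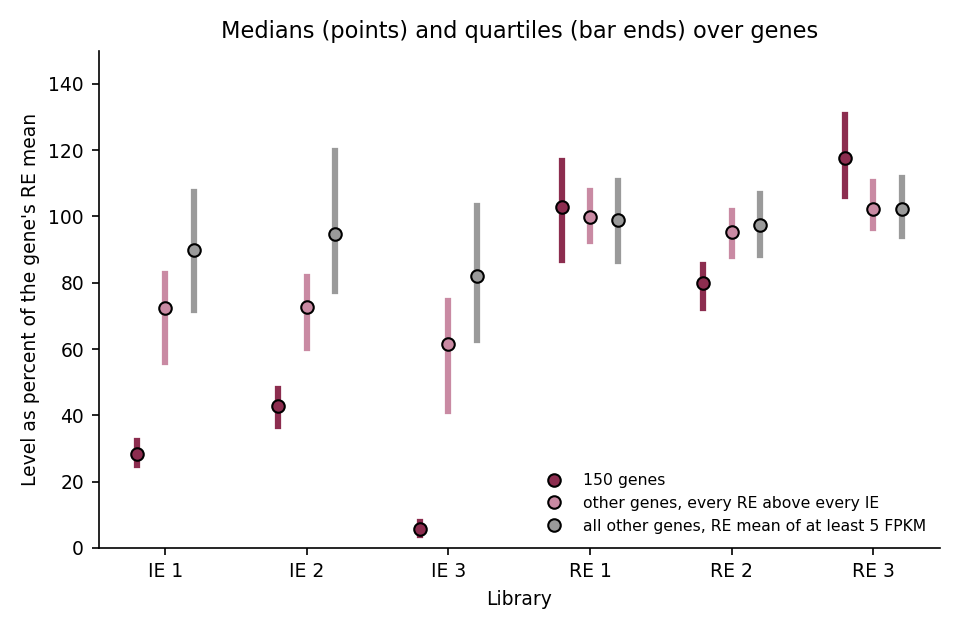
The level in each library is drawn as a percentage of the RE mean of the gene, with points for medians and bars between the quartiles of the genes in 3 sets. The RE-steep genes sit at 28.4%, 43.0% and 5.69% in IE 1, 2 and 3, below both other sets in each of these libraries, and at 103%, 79.8% and 118% in RE 1, 2 and 3.

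The order of the IE libraries was nearly the same from gene to gene. IE 3 was lowest, IE 1 intermediate and IE 2 highest in 135 of the 150 (90.0%), an order found in 31.1% of all genes tested and in 41.8% of the other separated genes. In 13 RE-steep genes IE 3 was lowest and IE 1 highest, so IE 3 was the lowest library in 148 (98.7%, against 48.2% of all genes tested). After median-of-ratios scaling the counts of these 2 orders were 130 and 18. The 2 exceptions were TraesCS1A01G086100 and TraesCS1D01G087600, annotated as carboxypeptidases, in which IE 2 was lowest. Among the 15 genes outside the common order, the ratio of IE 1 to IE 2 was largest in TraesCS7D01G081400, named after its values were seen, with 4.06, 1.08 and 0.306 FPKM in IE 1, 2 and 3.

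Counting error limited IE 3 in the weaker genes. Of the 150, 46 rested on fewer than 10 fragments in IE 3 and 21 on 3 fragments or fewer, whereas the lowest number in any RE library was 38 fragments. TraesCS1D01G038900, TraesCS2B01G606000 and TraesCS5B01G051100 had no fragment in IE 3. The median number of fragments was 21 in IE 3, 131 in IE 1 and 247 in IE 2, and between 396 and 715 in the RE libraries.

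To read the genes in a library that had no part in their choice, the rule was applied again with each library left out. The 150 genes chosen without IE 3 had a median level of 6.25% of the RE mean in IE 3 (quartiles 4.17% and 8.90%), and all 150 lay below every RE library there, as did 55.9% of the reference genes at that level and 89.5% of those separated in the other 5 libraries. The 150 chosen without IE 1 lay at a median of 30.2% in IE 1, below every RE library in 150 genes (43.5% of the reference genes, 67.5% of those separated in the other 5 libraries). The 150 chosen without IE 2 lay at a median of 44.8% in IE 2, below every RE library in 145 genes (38.5% and 45.8%, in the same order). The left-out RE libraries lay above every IE library in 146, 148 and 150 of the genes chosen without RE 1, RE 2 and RE 3, against 34.7%, 30.7% and 35.7% of the reference genes and 67.7%, 72.4% and 86.0% of those separated in the other 5 libraries. Each of these readings comes from a single library, set against libraries of the other region that took part in the choice. The comparison genes were not matched on the size of the difference. The readings are therefore a description, without a test. Of the original 150 genes, 112 were chosen again without IE 3, 135 without IE 1 and 136 without IE 2, and between 125 and 139 without 1 of the RE libraries.

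The RE libraries also differed among themselves, along an axis that the rule did not use. RE 2 was lowest in 115 of the 150 genes (76.7%), against 28.8% of all genes tested and 46.4% of the other separated genes. RE 3 was highest in 95 (63.3%, against 34.25% and 43.0%, in the same order) and RE 1 in 53 (35.3%, against 28.3% and 36.8%). The ratio of RE 3 to RE 1 had a median of 1.15 and ran from 0.414 to 3.26. This ratio differed between longer and shorter genes. In the 70 RE-steep genes of at least 600 bases, RE 3 was above RE 1 in 56 (80.0%) and the median ratio was 1.44. In the 79 shorter genes RE 3 was above RE 1 in 40 (50.6%) and the median ratio was 1.00. The other reference genes split in the same direction and by less, with median ratios of 1.07 (600 bases or more) and 0.947 (shorter). In IE 3 the medians were 5.53% of the RE mean in the longer and 5.89% in the shorter RE-steep genes.

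The RE-steep genes were short. The recovered lengths, of which 78.5% were multiples of 3, had a median of 552 bases (range 141 to 2745, 149 genes with a length), against 1008 bases in the other reference genes and 1179 bases in the other separated genes. Of the 149, 79 (53.0%) were under 600 bases, compared with 23.2% of the other reference genes. The part of length in the differences between IE and RE was not tested.

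Of the 150 genes, 7 carry a role in the text of the study, all of them in nitrogen or amino acid metabolism. They come from a list of 36 genes in 14 classes that the study discussed, partly for their differences between these regions in either direction. Their presence is therefore not independent evidence. The nitrate reductase genes, whose product reduces nitrate to nitrite, were represented by 2 of 2 genes, the carboxypeptidase genes by 2 of 4 and the amino acid transporter genes by 3 of 5. The 4 genes of these classes outside the list were also separated, as were 2 of 3 aspartic- or cysteine-type peptidases and 1 of 2 other transcription factors. The share over all genes tested was 11.9%. The study named the carboxypeptidases, transporters and these peptidases as higher in RE under low or high nitrogen. That share is therefore no background for genes picked by their direction. The gliadin, globulin, serine-type endopeptidase, serine protease inhibitor, glutathione transferase, bZIP and GRAS genes on the list were not among the 150.

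The nitrate reductase gene TraesCS6A01G017500 had 16.1, 27.4 and 3.03 FPKM in IE 1, 2 and 3 and 38.8, 61.8 and 102 FPKM in RE 1, 2 and 3, a difference of 2.35. Its partner on 6D, TraesCS6D01G020700, had 15.4, 28.8 and 3.55 FPKM in IE and 54.9, 55.6 and 85.7 FPKM in RE, a difference of 2.32. Both copies were thus lowest in IE 3 and highest in RE 3, and their lowest RE values were 1.42 and 1.91 times their highest IE values. Without IE 3 their differences were 1.53 and 1.56. The study's text gives both genes as higher in IE than in RE under low nitrogen, the opposite direction to these values. The nitrogen level of these libraries is unassigned, and why the directions differ was not tested.

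Carboxypeptidases cut amino acids from the end of a protein chain, and the 2 among the RE-steep genes followed another order. TraesCS1A01G086100 had 14.3, 7.78 and 8.91 FPKM in IE 1, 2 and 3 and 43.3, 46.0 and 141 FPKM in RE 1, 2 and 3. TraesCS1D01G087600 had 7.09, 3.44 and 4.25 FPKM in IE and 22.9, 25.2 and 55.8 FPKM in RE. Their differences were 2.60 and 2.52, and without IE 3 they were still 2.52 and 2.46. The third copy, TraesCS1B01G104500, had an RE mean of 9.10 FPKM and a difference of 1.68, short of the list, with the same order of IE libraries (2.30, 1.59 and 2.03 FPKM) and the same high value in RE 3 (5.37, 7.83 and 14.1 FPKM in RE 1, 2 and 3). In all 3 copies IE 2 was thus the lowest IE library and RE 3 the highest library. The fourth carboxypeptidase of the study, TraesCS5D01G196500, was weak and had the common order, with 0.152, 0.244 and 0.127 FPKM in IE 1, 2 and 3 and an RE mean of 0.801 FPKM.

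Amino acid transporters carry amino acids across membranes. TraesCS2A01G348600 was the most abundant of them, with 35.5, 56.8 and 9.51 FPKM in IE 1, 2 and 3 and 102, 97.7 and 165 FPKM in RE 1, 2 and 3. TraesCS7A01G194500 had 1.94, 2.13 and 0.202 FPKM in IE and 14.9, 8.23 and 10.6 FPKM in RE. TraesCS7D01G196100 had 0.818, 1.55 and 0.101 FPKM in IE and 7.70, 3.74 and 6.65 FPKM in RE, the lowest RE mean of the 150 at 6.03 FPKM. In this last gene the RE mean was 7.33 times the IE mean although the difference was only 1.98, which shows how the added 1 compresses low values. The 7B copy TraesCS7B01G100100 had the same order in IE (0.818, 1.49 and 0.151 FPKM) with an RE mean of 4.38 FPKM and a difference of 1.62, both under the limits of the list. The chromosome 7 pair rested on 4 and 2 fragments in IE 3. The remaining transporter of the study, TraesCS2B01G551300, was weak, with an RE mean of 0.911 FPKM. Its order in IE was another one, with IE 1 lowest (0.070, 0.280 and 0.164 FPKM in IE 1, 2 and 3).

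**Figure D3:**
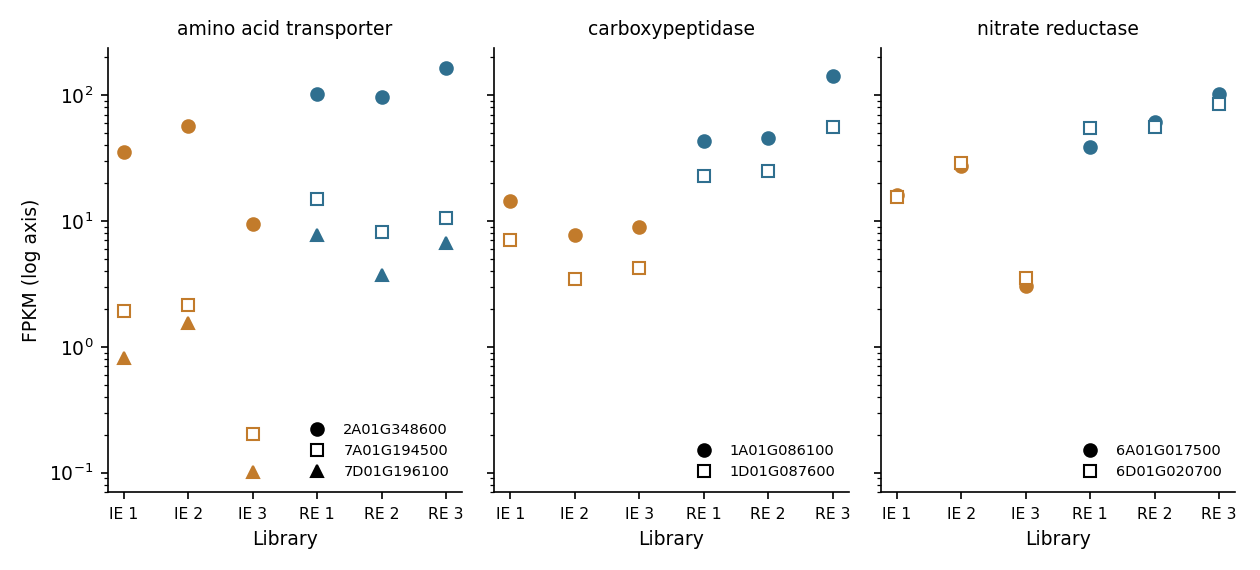
FPKM of the 7 RE-steep genes with a role in the study's text, on a log axis, by library and class (identifiers without their TraesCS prefix). IE 3 is lowest for the transporters and nitrate reductases, at between 0.101 and 9.51 FPKM, while IE 2 is lowest for the carboxypeptidases, at 7.78 and 3.44 FPKM.

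No role or sequence was at hand for the other members, and they are given by identifier. The gene with the largest difference, TraesCS1D01G012000, had 8.11, 9.23 and 2.01 FPKM in IE 1, 2 and 3 and 60.2, 28.8 and 48.0 FPKM in RE 1, 2 and 3, a difference of 2.77. TraesCS3D01G438300 followed with 29.2, 46.2 and 2.56 FPKM in IE and 106, 91.0 and 119 FPKM in RE, a difference of 2.62. Its RE libraries lay close together and its IE libraries far apart, with IE 3 on 15 fragments. The rest of the first 10 were the 2 carboxypeptidases, TraesCS6B01G027200, TraesCS5A01G369800, TraesCS1D01G225900, TraesCS1D01G436000, TraesCS1D01G163800 and TraesCS4D01G339400, with differences between 2.45 and 2.60. Of these 10 genes, 5 lie on chromosome 1D.

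The most abundant member was TraesCS1D01G063700, with 695, 966 and 133 FPKM in IE 1, 2 and 3 and 2210, 1564 and 1850 FPKM in RE 1, 2 and 3. Next were TraesCS5B01G424800, TraesCS5A01G422900 and TraesCS5D01G431100, with RE means of 1298, 1175 and 1126 FPKM and IE means of 398, 359 and 334 FPKM. These 3 lie on the A, B and D chromosomes of group 5 and had differences between 1.99 and 2.07, but their recovered lengths of 324, 207 and 571 bases kept them out of the candidate homoeologs described below. The others of the 10 most abundant were TraesCS1D01G063500, TraesCS5B01G400600, TraesCS1B01G183100, TraesCS5B01G282100, TraesCS5D01G405100 and TraesCS3B01G493300, with RE means from 523 to 918 FPKM. TraesCS5B01G282100 stood out in RE 3, with 419, 484 and 925 FPKM in RE 1, 2 and 3.

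The RE-steep genes were spread over all 21 chromosomes. Chromosome 1D held the most, 17 genes (11.3%, against 5.05% of the reference genes at an RE mean of at least 5 FPKM), followed by 3A with 13, 5B and 5D with 11 each and 5A with 10. By group of chromosomes, group 1 held 33 (22.0%, against 13.9%), group 5 held 32 (21.3%, against 16.5%) and group 6 held 7 (4.67%, against 10.7%). The D subgenome held 57 genes (38.0%, against 33.9%), A held 49 and B held 44. None of the 139 reference genes without a chromosome was among them. In the outer 10% of the gene order at either end of a chromosome lay 41 of the 150 (27.3%), against 15.9% of the reference genes. Members that are homoeologs or neighbours of each other are not independent in these counts.

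**Figure D4:**
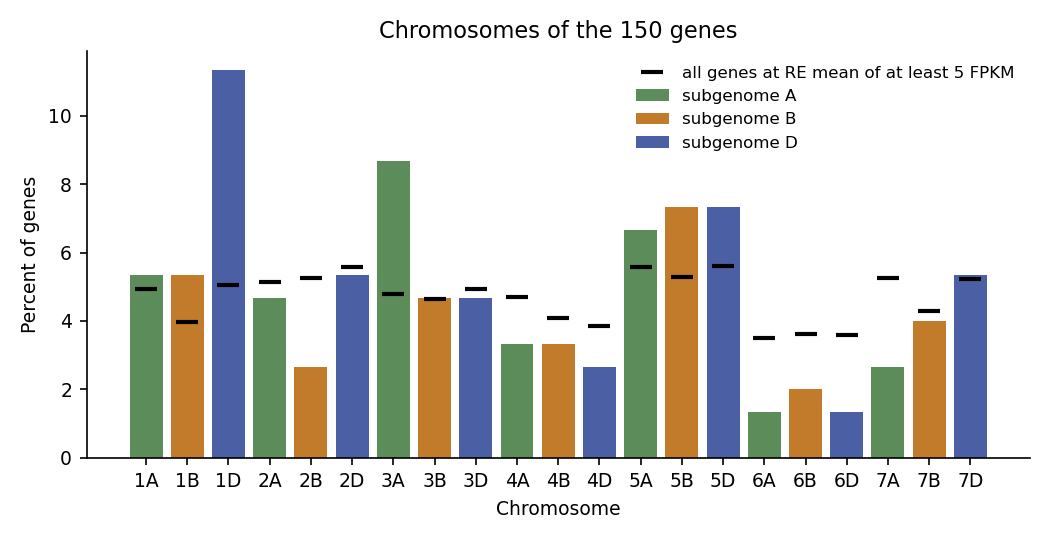
Bars give the percentage of the 150 RE-steep genes on each chromosome, coloured by subgenome, and black marks the percentage of all reference genes at an RE mean of at least 5 FPKM. Chromosome 1D stands at 11.3% over a mark of 5.05%, and the bars of 6A, 6B and 6D lie below their marks.

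Homoeologs were sought by position, as members on different subgenomes of one group with a gene order within 0.02 of the chromosome and a length within 10%. The length condition could not be applied to the member without a recovered length, which was kept in a set with genes on 7B. By this rule, 54 of the 150 genes (36.0%) fell into 23 candidate sets with 35 pairs, and 3 sets reached all 3 subgenomes. The rule is loose: of the 12369 reference genes, 95.1% had such a partner among themselves, so the sets are candidates by position and not shown homologies. Among those reference genes, 139 of the 150 members had a partner. The 36.0% was counted within the 150 genes alone, so the 95.1% is no background for it. Without the length condition 105 members fell into sets, and with an order within 0.01 the number was 35. The rule did find the 6A and 6D nitrate reductases, the 1A and 1D carboxypeptidases and the 7A and 7D transporters.

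In the first complete set, TraesCS2A01G348600, TraesCS2B01G367000 and TraesCS2D01G347000 had lengths of 1560, 1488 and 1557 bases and RE means of 121, 41.5 and 89.6 FPKM. Their differences were 2.08, 2.06 and 2.01, close to each other, while the levels of the copies were not. The study annotates the first of them as an amino acid transporter. In the second set, TraesCS5A01G270700, TraesCS5B01G271200 and TraesCS5D01G278500 had RE means of 58.7, 21.3 and 23.8 FPKM and differences of 2.38, 1.92 and 2.16. RE 3 was highest in all 3 copies, at 82.6, 31.3 and 33.8 FPKM, against 43.0, 12.9 and 15.5 FPKM in RE 1. The third set, TraesCS1A01G426600, TraesCS1B01G460900 and TraesCS1D01G436000, shared a length of 201 bases and had RE means of 30.2, 17.7 and 32.0 FPKM. In these 3 genes RE 1 was highest, at 36.9, 25.7 and 41.4 FPKM, and IE 3 rested on 5, 1 and 1 fragments.

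The contrast among RE libraries, which the rule did not use, was compared within candidate pairs. Over the 35 pairs, the differences between RE 3 and RE 1 on the log2(FPKM + 1) scale had a correlation of r = 0.783 across pairs, and the values of a pair had the same sign in 27. The median gap within a pair was 0.17. The pairs share libraries and some share a gene, and reads of near-identical copies may have been divided between them, so the pairs are not independent and no p-value is given. Apart from the pairs of the member without a recovered length, the pairs were also matched on length. This contrast moved with length (median ratios of 1.44 and 1.00 in longer and shorter members), and the part of length in the correlation was not tested.

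**Figure D5:**
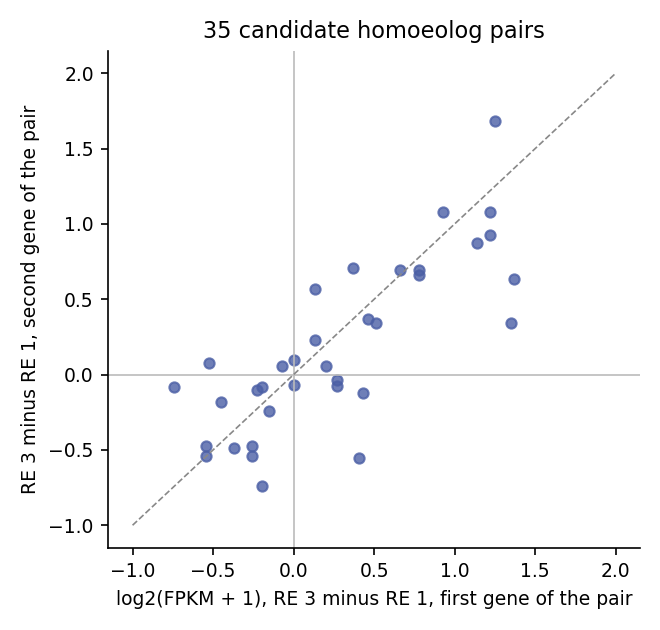
Each point is 1 of the 35 candidate homoeolog pairs, with the difference RE 3 minus RE 1 on the log2(FPKM + 1) scale of one gene against that of the other, and the dashed line marks equal values. Points gather along the line, with 27 pairs on the same side of 0 in both genes.

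Tandem neighbours, taken as members with gene numbers at most 300 apart, made up 21 of the 150 genes (14.0%) in 10 runs. No such share is given for other reference genes, so this count is not read as clustering. Members in a homoeolog set, a tandem run or both numbered 63, and 87 were in neither. The most abundant run lay on 1D, where TraesCS1D01G063500 had 303, 423 and 80.7 FPKM in IE 1, 2 and 3 and 1194, 742 and 818 FPKM in RE 1, 2 and 3, beside TraesCS1D01G063700 above. The gene between them, TraesCS1D01G063600, and the next ones, TraesCS1D01G063800 and TraesCS1D01G063900, were also separated, with RE means of 299, 140.5 and 52.2 FPKM and differences of 1.71, 1.87 and 1.70, under the limit of the list. Another block stood on 1A at almost the same relative gene order (0.140 of the chromosome on both). There TraesCS1A01G062500 and TraesCS1A01G062700 were members with RE means of 39.4 and 19.0 FPKM, and TraesCS1A01G062600 and TraesCS1A01G062900 were separated with differences of 1.64 and 1.67. The 1A block also lies near TraesCS1A01G063100, which missed the list narrowly. The members on 1A and 1D in this block were 324 or 327 bases long, and the RE means of the 1D pair were far higher. The differences of these members lay between 1.95 and 2.05, in a list that was chosen by this difference.

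The only run of 3 was on 5B. TraesCS5B01G050800 had 49.5, 82.6 and 11.9 FPKM in IE 1, 2 and 3 and 196, 146 and 180 FPKM in RE 1, 2 and 3. TraesCS5B01G051000 had 116, 132 and 27.8 FPKM in IE and 391, 256 and 374 FPKM in RE. TraesCS5B01G051100 was far weaker, with 4.47, 2.31 and 0 FPKM in IE and 9.74, 11.1 and 10.5 FPKM in RE. The gene between the first and second, TraesCS5B01G050900, was listed at under 0.4 FPKM in every library. On 5A the run TraesCS5A01G046300 and TraesCS5A01G046500 stood at the corresponding position, with RE means of 104 and 294 FPKM.

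Steepness did not extend to all neighbours. Beside TraesCS1D01G011900 and TraesCS1D01G012000, whose differences were 2.43 and 2.77, the next gene TraesCS1D01G012100 had 47.7, 178 and 91.5 FPKM in IE 1, 2 and 3 and 52.0, 87.1 and 76.9 FPKM in RE 1, 2 and 3, overlapping between the regions. On group 3, TraesCS3A01G454700 and TraesCS3A01G454800 had RE means of 278 and 84.7 FPKM and differences of 2.37 and 2.22, and TraesCS3D01G447400 and TraesCS3D01G447500 had RE means of 137 and 340 FPKM and differences of 2.12 and 2.29. The genes just before these pairs, TraesCS3A01G454600 and TraesCS3D01G447300, differed by 0.00 and 0.19. Of the genes just after them, TraesCS3A01G454900 differed by -0.07. TraesCS3D01G447600 was separated, with an RE mean of 4.39 FPKM and a difference of 1.06. The remaining named pairs were TraesCS3A01G451400 with TraesCS3A01G451600, at RE means of 25.9 and 28.7 FPKM, and TraesCS1D01G225700 with TraesCS1D01G225900, at 15.6 and 23.9 FPKM.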

How the data were processed

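The authors trimmed the reads (fastp), mapped them with HISAT2 to the genome of Chinese Spring and deposited per-gene FPKM values for 6 libraries, used as deposited. The counting tool and its use of strand are not given in the sources used here, so reads of homoeologs, tandem copies and antisense genes may have been divided between them. Whole fragments and gene lengths were recovered from the steps of the FPKM values (100% of 86042 genes above 0). The fragments were used for depth only, and the lengths for the comparisons by length and for the candidate homoeologs. IE and RE were compared over all 51830 genes averaging at least 0.5 FPKM by limma 3.58.1 (R 4.3.3, trend) on log2(FPKM + 1), with Benjamini-Hochberg adjustment, a p of 0.05 and a 2-fold limit, after a test on simulated data. The methods call the replicates biological but do not say which plants or plots they came from, and p-values measure the spread between these libraries. None of the identifiers matched the gene table at hand (IWGSC CS RefSeq v2.1), so roles come from the study's text alone. Genes named are those with such a role, the 10 of largest difference, the 10 of highest RE mean, complete homoeolog sets, runs of 3 or more, the 5 pairs of largest difference of each kind and the 3 on either side of the limit. The markers were 1 gliadin and 2 globulin genes. The members and lists were chosen with earlier results of these data known. Alternatives changed the pseudocount (0.1 or 5), scaling, filter, variance trend, list length and level, the position windows and the replicate block, or left out a library. Python 3.11.15, pandas 2.3.3 and matplotlib 3.10.9 were used.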

Additional observations from a re-analysis of the deposited data

How the results depend on the processing

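The count of adjusted calls stayed at 0 under each alternative except leaving out IE 2 (0 to 1068 genes when leaving out 1 library). With the unadjusted p from limma, genes higher in RE numbered 2130 at a pseudocount of 0.1, 383 at 5 and 572 with a filter at a mean of 5 FPKM, against 1145. Genes higher in IE numbered 850, 61 and 94 under the same settings and 491 after median-of-ratios scaling, against 292, and 216 to 590 when leaving out 1 library. With the replicate block the adjusted count was 0 and the unadjusted counts 1148 and 441. The deviations of same-numbered libraries from their region means correlated at 0.17, 0.07 and -0.285. With 3 libraries per region this cannot show whether the numbers pair them, so pairing stays unknown. Of the 150 genes, 107 were chosen again at a pseudocount of 0.1, 115 at 5, 117 with an RE mean of at least 20 FPKM and 112 to 139 when leaving out 1 library. Their median difference was 1.41 to 2.60 when leaving out 1 library, 2.35 and 1.65 at pseudocounts of 0.1 and 5. IE 3 stayed the lowest IE library in 146 to 150 of the genes chosen under the other pseudocounts, the other scaling and the removal of any library but itself. Members in candidate homoeolog sets were 35 with an order within 0.01, 105 with no length condition and 119 with an order within 0.04 and no length condition (the last chosen after seeing the data), against 54. Members in tandem runs were 10 with gene numbers at most 100 apart, against 21. For the 52 named genes, 8 of 520 values under the alternatives moved by more than the spread between replicates, among them TraesCS7D01G196100 from 1.98 to 3.13 and 0.91 at pseudocounts of 0.1 and 5. Their sign was fixed by the rule. For most of these genes the spread includes a far lower IE 3 value, so this count could hardly register the removal of IE 3. None of the moves came from that removal, although it took the median difference of the 150 genes from 2.09 to 1.41. Depth limits the weak genes in IE 3, where 3 fragments on 1 kb correspond to 0.215 FPKM.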
